A study of Gallus gallus with 4 samples.

Results

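Recovery from form-deprivation myopia (FDMR) was followed here between 6 hr and 24 hr after the occluder was taken off, as the log base 2 expression of the FD 24 hr array minus that of the FD 6 hr array. A gene was given the median level of its probe sets on each array, and the genes described are the 6101 of 13051 measured whose mean over 4 arrays was above a limit of 6.28, set at the 60th percentile of the means of all probe sets. These are called counted genes and those at or under the limit dim genes. NUDT14, PRKAB2 and UMPS lay just outside the limit, with differences of -0.02, 0.23 and 0.22, and FIGNL2, KICS2 and MAU2 just inside it, with 0.09, 0.41 and 0.16.

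All chicks were Leghorn/New Hampshire birds, labelled male, kept under a 12-hr day/night cycle, and the combined retina, RPE and choroid of right eyes from 5 chicks was pooled for each array. FD 6 hr and FD 24 hr chicks wore an occluder over the right eye, which was then removed 6 hr or 24 hr before collection, and they were aged 11 and 12 post-hatch days. The other arrays were an FD 0 hr pool, collected at the end of occluder wear, and a control pool that wore no lens, both aged 11 post-hatch days. Occluder wear is 10 days in the protocol of the labels and 7 days in their time point. The recovery times lie 18 hr apart within a daily cycle and the hour of collection is not given in the sources used here, so that time of day, age and duration of recovery cannot be told apart. In tissue pooled in this way, fewer cells of a type and less RNA per cell cannot be told apart either.

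An eye deprived of form vision elongates and becomes myopic, and once vision is restored its growth slows while the choroid thickens. The retina keeps a daily clock in which CLOCK and its BMAL partners drive the genes of their own repressors, and photoreceptors, melatonin synthesis and visual sensitivity follow it. Photoreceptors depend on the RPE, which regenerates the visual chromophore from retinol, and retinoic acid made from the same precursor is a known signal of eye growth in the chick.

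Each condition was measured on 1 array, which leaves no replicate check, and no p-value was computed. The only spread within the arrays is that among probe sets of the same gene, whose differences had a pooled SD of 0.26. Medians over all probe sets were 5.73 and 5.74 on the recovery arrays. The hybridisation controls differed by 0.08 to 0.26 between these arrays and the poly-A controls, which are added before labelling, by -0.36 to 0.01, with *dap* the lowest. The control bioC stood at 6.57 and 6.67 on the recovery arrays but at 9.51 on the control array and 9.30 at FD 0 hr, so that levels on the latter arrays are given only for orientation. The 3′ probe set of β-actin exceeded the 5′ one by 2.39 at FD 6 hr and 2.85 at FD 24 hr, and by 2.54 in control and 3.72, the widest gap, at FD 0 hr. The gap of EF1α varied less, with 1.12 at FD 6 hr, 1.30 at FD 24 hr, 1.21 in control and 1.41 at FD 0 hr. That of GAPDH was 0.155 to 0.205 on the 4 arrays. The authors held β-actin to be unreliable as a housekeeping gene, after its signal was above threshold in both datasets they used. Such gaps are a measure of RNA integrity, and their part in the differences was not tested. HINTW, a gene of the female W chromosome, was at 5.37 and 5.34 on the recovery arrays and 5.51 at FD 0 hr but 9.36 on the control array, which goes against the label of that pool as male. The labelled tissues were present on both recovery arrays. The red cone opsin OPN1LW was at 12.66 and 11.91 and the bipolar cell factor VSX1 at 11.83 and 11.63 for retina, RPE65 at 13.32 and 12.75 for RPE, and the endothelial cadherin CDH5 at 8.54 and 7.90 and the matrix proteoglycan DCN at 11.50 and 11.22 for choroid.

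Most genes differed little between 6 hr and 24 hr of recovery, and the larger differences lay mostly on the lower side. Of the counted genes 90.28% differed by less than 0.5, the median difference was -0.03 and the SD over genes 0.31. At FD 24 hr 19 genes were higher by at least 1, which is a doubling, or 0.311% of those counted, and 57 were lower by at least 1, or 0.934%. A smaller difference of at least 0.5 was reached by 174 genes on the higher side, 2.85%, and 419 on the lower side, 6.87%. The excess of lower genes was present in every band of level, from 13 lower against 2 higher among 1821 genes with a mean below 7 to 9 against 4 among 648 genes with a mean above 10. Of the genes past 1, 14 of the 19 higher and 43 of the 57 lower rested on a single probe set, against 49.5% of all counted genes. Where several probe sets read a gene past 1, all went the same way for 3 of 5 higher and 12 of 14 lower genes. Over all counted genes with several probe sets, all went the same way for 1550 of 3081. Genes picked for a large median are also more apt to have probe sets that go the same way. A gene's level is the median of its probe sets on each array separately, so a gene can pass on a probe set that differs from its others. The levels on the recovery arrays can also come from different probe sets, as for CALB1 at 6.34 and 7.43. When the median of the probe sets' own differences was taken instead, 14 genes were higher and 53 lower.

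**Figure D1:**
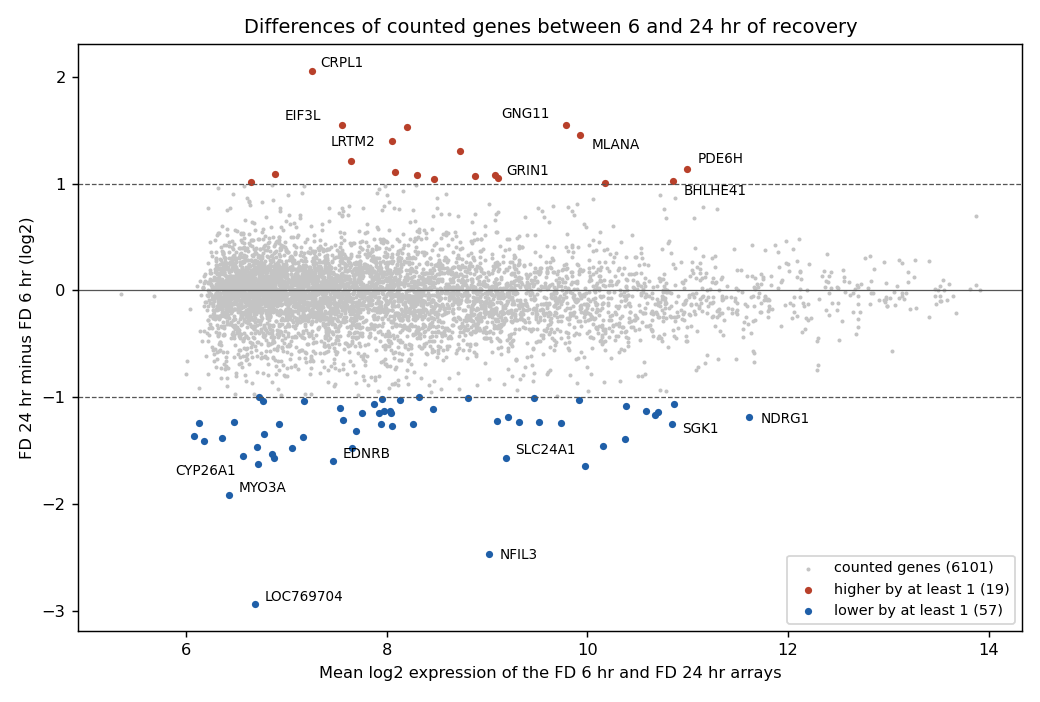
Each point is a counted gene, with the mean of its log2 levels on both recovery arrays on the horizontal axis and the log2 difference, FD 24 hr minus FD 6 hr, on the vertical axis. Genes past the dashed lines at 1 and -1 are coloured, 19 higher in red and 57 lower in blue, with NFIL3 at -2.47 well below other genes of its level.

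The lowest values were those of a locus without a name and of NFIL3, a repressor that competes with the PAR bZIP activators of clock output. LOC769704, an unnamed locus on chromosome 11, stood at 6.65 in control, 7.08 at FD 0 hr, and 8.16 and 5.22 at 6 hr and 24 hr of recovery, a difference of -2.94. NFIL3 was at 8.82, 9.16, 10.25 and 7.78 in the same order of arrays, which is a 5.54-fold lower level at 24 hr. For both genes the FD 6 hr array was the highest of the 4 and the FD 24 hr array the lowest. Each rests on a single probe set.

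Membrane and signalling proteins were among the other lower genes. CD82, a tetraspanin of cell membranes, was at 9.84 in control, 9.57 at FD 0 hr, and 10.80 and 9.15 at 6 hr and 24 hr of recovery, a difference of -1.65. EDNRB, a receptor of endothelins, stood at 6.42, 8.04, 8.27 and 6.67, and its 2 probe sets differed by -1.61 and -1.59. EDNRB thus was high at FD 0 hr and still at 6 hr of recovery, and near its control level at 24 hr. CFC1, a co-receptor of Nodal signals on the Z chromosome, had a like order with 5.70, 7.89, 7.44 and 5.97, a difference of -1.47. KCNA2, a potassium channel of axons, was at 8.33, 6.18, 6.88 and 5.47, so that its FD 24 hr level was the lowest of the 4. BCAR1, an adaptor protein of integrin signalling, had a difference of -1.55, the lipase family member ABHD3 of -1.48, PTPDC1, a protein with a tyrosine phosphatase domain, of -1.48, INPP5B, an inositol phosphatase, of -1.46 and LOC100858941, an unnamed locus on the Z chromosome, of -1.57.

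MYO3A and SECISBP2L were lower by at least 1 in some of their probe sets only. MYO3A, an unconventional myosin of photoreceptors and hair cells, was at 7.39 at FD 6 hr and 5.47 at FD 24 hr by its middle probe set, a difference of -1.92, whereas its other probe sets differed by -0.17 and -0.10. SECISBP2L, related to a factor of selenoprotein synthesis, had probe set differences of -1.53, -1.32 and -0.12, the smallest from its brightest probe set.

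The genes furthest above their FD 6 hr level were of mixed function. CRPL1 was at 6.55 in control, 7.94 at FD 0 hr, and 6.22 and 8.28 at 6 hr and 24 hr of recovery, a difference of 2.06 or 4.17-fold. GNG11, a γ subunit of heterotrimeric G proteins, was at 10.88, 10.59, 9.01 and 10.56, so that the FD 6 hr array stood apart as low. EIF3L, a subunit of a translation initiation factor, was at 7.08, 6.44, 6.78 and 8.33, with FD 24 hr the highest of the 4. Of the galectin LGALS1A the levels were 6.24, 9.0, 7.44 and 8.97. MLANA, a melanosome protein whose gene lies on the Z chromosome, had the same order with 7.87, 11.09, 9.20 and 10.66. Both therefore had their high levels at FD 0 hr and FD 24 hr, with the FD 6 hr level between those and the control level.

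Several other higher genes, among them genes of neurons, were low on both the FD 0 hr and the FD 6 hr array. LRTM2, a leucine-rich repeat membrane protein, was at 8.70 in control, 7.26 at FD 0 hr, and 7.35 and 8.75 at 6 hr and 24 hr of recovery. NCS1, a neuronal calcium sensor, had levels of 9.32, 7.19, 7.76 and 8.84, and HDAC4, a histone deacetylase, of 8.68, 6.76, 7.95 and 8.99. The integrin subunit ITGB5, which takes part in the uptake of photoreceptor outer segments by the RPE, was at 8.89, 7.22, 7.53 and 8.64. FGF12, an intracellular partner of sodium channels, was instead low only at FD 6 hr, with 9.26, 9.13, 8.34 and 9.41. NFASC, an adhesion protein of axons, differed by 1.21, with 0.36 to 1.21 over its 3 probe sets, and HMGN5, a nucleosome-binding protein, by 1.31, with 0.24 to 1.31.

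**Figure D2:**
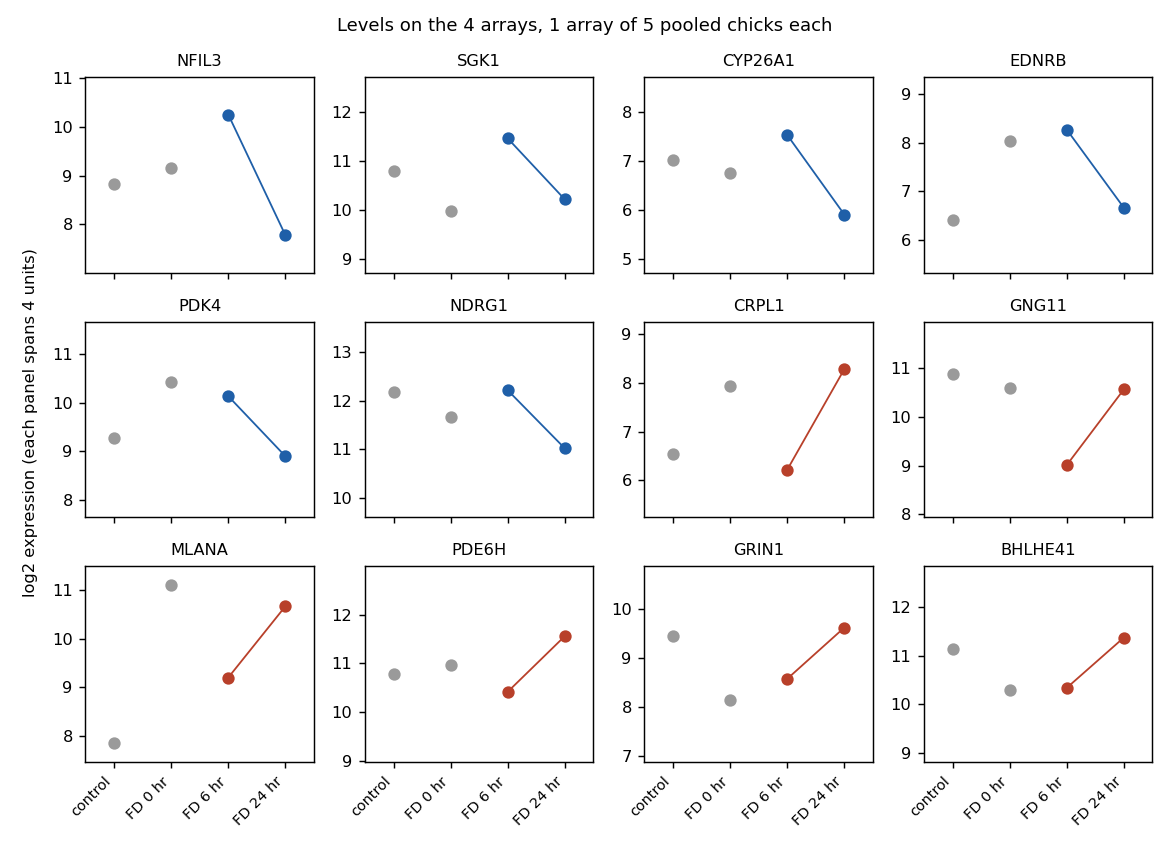
Log2 expression of 12 genes on the 4 arrays, each of 5 pooled chicks, in panels that all span 4 log2 units, with the recovery arrays joined and coloured (blue lower, red higher at FD 24 hr) and the control and FD 0 hr arrays in grey. NFIL3 lies between 7.78 and 10.25 with FD 6 hr as the top, whereas GNG11 is low only at FD 6 hr, at 9.01.

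The difference between the FD 0 hr and control arrays shares no array with the difference between FD 24 hr and FD 6 hr. For FD 0 hr minus control, the median over the 19 genes higher at FD 24 hr was -0.45, with 7 of them above control and 12 below, and over the 57 lower genes it was 0.19, with 34 above and 23 below. Over all counted genes that median was -0.05 and 45.32% were higher. Genes of the Z chromosome made up 4.41% of the counted genes and were 1 of the 19 and 3 of the 57.

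Members of the circadian clock differed in both directions. Of 15 counted members, 5 were higher by at least 0.5 and 3 lower, which are 33.3% and 20% of the list against 2.85% and 6.87% of all counted genes. Their median was -0.20, which hides the split, since differences ran from -2.47 to 1.03.

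On the higher side stood repressors and nuclear receptors of the clock. BHLHE41, a repressor of CLOCK-driven genes, was at 11.13 in control, 10.29 at FD 0 hr, and 10.34 and 11.37 at 6 hr and 24 hr of recovery, a difference of 1.03. CRY2, a cryptochrome that inhibits CLOCK complexes, had levels of 9.74, 9.04, 9.26 and 10.05, and its 3 probe sets differed by 0.27 to 0.88. NR1D2, the nuclear receptor REV-ERBβ that represses BMAL genes, was at 9.01, 8.35, 8.52 and 9.24, with all 5 probe sets higher by 0.39 to 0.72. RORA, the activating receptor that binds the same elements, was at 9.57, 8.79, 9.04 and 9.72. These 4 genes share an order in which FD 24 hr was the highest array and FD 0 hr, with its wide β-actin gap, the lowest. HLF, a PAR bZIP activator of clock output that binds the same sites as NFIL3, differed by 0.81, but its 4 probe sets ranged from -0.01 for the brightest to 1.63. BHLHE40, the paralogue of BHLHE41, differed by 0.29 with all 4 probe sets higher.

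On the lower side stood NFIL3 and the positive limb of the clock. ARNTL, which encodes BMAL1, was at 6.76 at FD 6 hr and 5.93 at FD 24 hr, a difference of -0.82, and its brightest probe sets went from 9.08 to 7.47 and from 8.28 to 6.83. A dim probe set of ARNTL at about 5 differed by 0.06, and the median of the 4 probe set differences was -1.25. ARNTL2, the paralogue that encodes BMAL2 and was singled out after its values were seen, had levels of 8.61 in control, 9.84 at FD 0 hr, and 9.93 and 8.70 at 6 hr and 24 hr of recovery, a difference of -1.23. CLOCK, their partner, was at 8.87, 8.11, 8.78 and 8.30, with both probe sets lower by 0.49 and 0.45. FBXL21, which targets cryptochromes for degradation, differed by -0.53 with 3 probe sets lower. Smaller differences were those of the kinase CSNK1D at -0.45, CRY1 at -0.29, the avian cryptochrome CRY4 (LOC395100) at -0.20, NPAS2, a stand-in for CLOCK, at -0.20 and RORB at -0.12, of which CSNK1D and CRY1 had probe sets in both directions.

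The period genes were dim. PER3 was at 5.91 at FD 6 hr and 6.26 at FD 24 hr with 4 probe sets that differed by 0.26 to 1.47, and PER2 was at 5.66 and 5.97 with 6 probe sets that differed by -0.02 to 0.63. CSNK1E, a kinase of the period proteins, differed by 0.28 and the activator TEF by -0.04, both dim. Among the enzymes of melatonin synthesis, ASMT, the last step, was at 7.93 in control, 8.44 at FD 0 hr, and 7.91 and 8.55 at 6 hr and 24 hr of recovery, a difference of 0.64, whereas AANAT, the rhythmic step before it, stood at 8.62 and 8.70 on the recovery arrays. TPH1, which opens the pathway, was dim at 4.63 and 3.98. The dopamine receptors DRD1, DRD4 and DRD5 lay between -0.12 and 0.02, and TH, the rate-limiting enzyme of dopamine synthesis, was dim with 0.13.

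**Figure D3:**
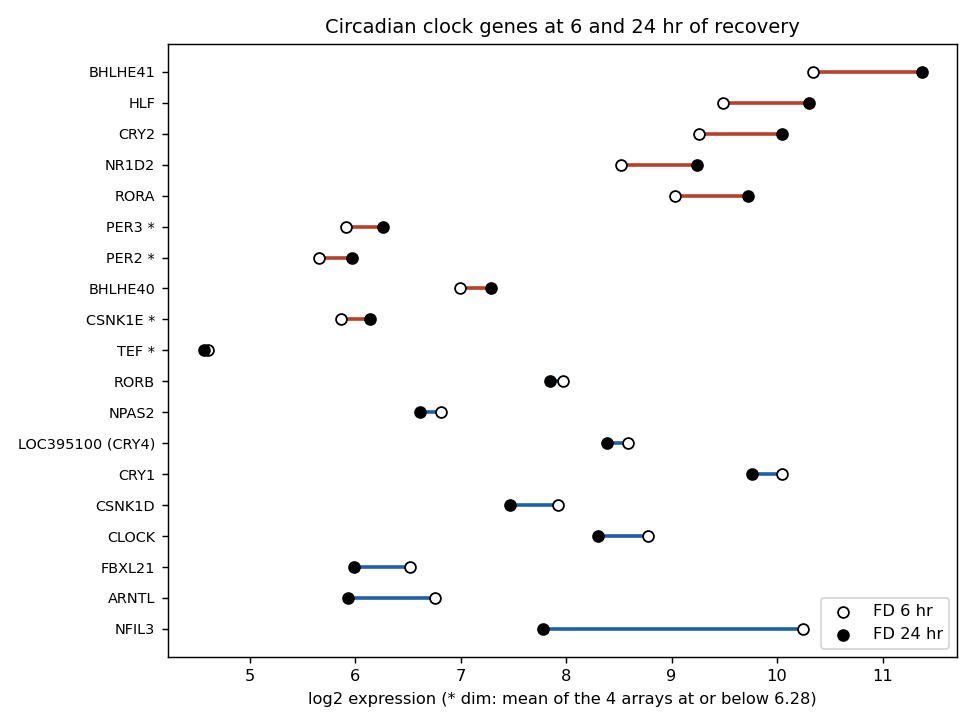
Log2 expression of the 19 measured members of the circadian clock list on the FD 6 hr array (open circles) and the FD 24 hr array (filled circles), joined in red where FD 24 hr was higher and in blue where it was lower. The longest bars are those of NFIL3, from 10.25 to 7.78, and BHLHE41, from 10.34 to 11.37.

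Genes of the cone phototransduction cascade were mostly higher at FD 24 hr, with 10 of 14 counted members higher and 4 lower. The higher share was 71.4% against 44.1% of all counted genes. By at least 0.5, 6 were higher by at least 0.5, or 42.9% against 2.85% of all counted genes, and 1 was lower, the red opsin, with a median of 0.44 over the list. PDE6H, the inhibitory subunit of the cone phosphodiesterase, was at 10.79 in control, 10.97 at FD 0 hr, and 10.42 and 11.56 at 6 hr and 24 hr of recovery. PDE6C, the catalytic subunit of the same enzyme, differed by 0.40. GRK7, the kinase that shuts off cone opsins, had levels of 8.95, 9.02, 8.54 and 9.62, a difference of 1.08. In PDE6H and GRK7 the FD 6 hr array was the lowest and the FD 24 hr array the highest of the 4.

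Other members of the cone cascade differed by less. ARR3, the cone arrestin, was at 10.04 in control, 8.88 at FD 0 hr, and 9.18 and 9.92 at 6 hr and 24 hr of recovery, with probe sets higher by 0.40 and 1.08. GUCA1A, a calcium-dependent activator of guanylate cyclase, was at 10.73, 9.98, 10.38 and 11.15, with probe sets higher by 0.56 and 0.96. The subunits of the cone cyclic nucleotide-gated channel, CNGA3 and CNGB3, differed by 0.72 and 0.68. Thus the effectors, shut-off proteins and channel subunits named here were on the same side. The α subunit of cone transducin, GNAT2, was at 12.56 and 12.44, and its γ subunit, GNGT2, was also lower, by less than 0.5. OPN1LW, the red cone opsin, was at 13.37, 11.06, 12.66 and 11.91 and so lower by 0.75 at FD 24 hr.

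In the rod cascade 6 of 7 counted members were lower and 1 was higher, with a median of -0.15. The lower share was 85.7% against 54.6% of all counted genes. SLC24A1, the sodium, calcium and potassium exchanger of rods, was at 9.40 in control, 9.75 at FD 0 hr, and 9.97 and 8.40 at 6 hr and 24 hr of recovery, a difference of -1.57, whereas its cone counterpart SLC24A2 differed by 0.27. CNGA1, the rod channel subunit, was at 6.89, 7.38, 7.64 and 7.12, lower by 0.52 at FD 24 hr. The other 5 counted members, among them the arrestin SAG at -0.06 and PDE6G, the inhibitory subunit of the rod phosphodiesterase, at 0.31, differed by less than 0.5. Of the 7 counted members 2 were lower by at least 0.5, or 28.6% against 6.87% of all counted genes. Of the dim members PDE6B, the catalytic subunit of the rod phosphodiesterase, was higher by 0.96, from 5.44 to 6.40, while GNAT1, the α subunit of rod transducin, was at -0.06 and CNGB1, a channel subunit, at 0.09. A few photoreceptor genes outside the lists were singled out after their values were seen, and they add nothing to the counts. RP2, a GTPase-activating protein of photoreceptor trafficking, was at 9.71 at FD 6 hr and 8.49 at FD 24 hr, PPEF2, a photoreceptor phosphatase, at 8.57 and 7.32, and TULP1, needed for transport to outer segments, at 10.75 and 9.90.

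Genes of the retinoid visual cycle were lower at FD 24 hr almost throughout. Of 12 members, all counted, 11 were lower and 1 was higher, with a median of -0.47. The lower share was 91.7% against 54.6% of all counted genes. By at least 0.5, 5 were lower, or 41.7% against 6.87% of all counted genes. RDH5, the RPE enzyme that oxidises 11-cis-retinol, was at 10.16 in control, 9.33 at FD 0 hr, and 9.97 and 8.96 at 6 hr and 24 hr of recovery, a difference of -1.01. RPE65, the isomerase that limits the rate of the cycle, was at 13.09, 13.09, 13.32 and 12.75, lower by 0.57. LRAT, which makes the retinyl esters that RPE65 uses, was at 7.34, 7.35, 6.95 and 6.47. Its recovery levels were both below those of the other arrays, as were those of the hybridisation controls. For RDH5, RPE65 and LRAT alike the FD 24 hr array was the lowest of the 4.

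Dehydrogenases and opsins of the same cycle lay close together. RDH11 differed by -0.45 and RDH14 by -0.50, and the photoisomerase RGR by -0.46 with probe sets at -0.52 and -0.40. The photoreceptor transporter ABCA4 was at 6.85 and 6.23, with 1 of its 3 probe sets at -0.01, and peropsin, RRH, differed by -0.58 with probe sets in both directions. Of the carriers, RLBP1 was at -0.18, RBP3 at -0.17, TTR at -0.22 and the retinol receptor STRA6 at 0.01. RDH8L, a relative of the photoreceptor retinol dehydrogenase that was singled out after its values were seen, went the other way, from 10.44 to 11.31. Of the 10 counted markers of pigment epithelium, 4 (RPE65, LRAT, RGR and TTR) are members of the cycle. The other 6 went both ways, with 4 higher and 2 lower and a median of 0.10, the lactate transporter SLC16A8 was at 0.13, the channel BEST1 at 0.39 and PMEL, a melanosome fibre protein, at 0.81.

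**Figure D4:**
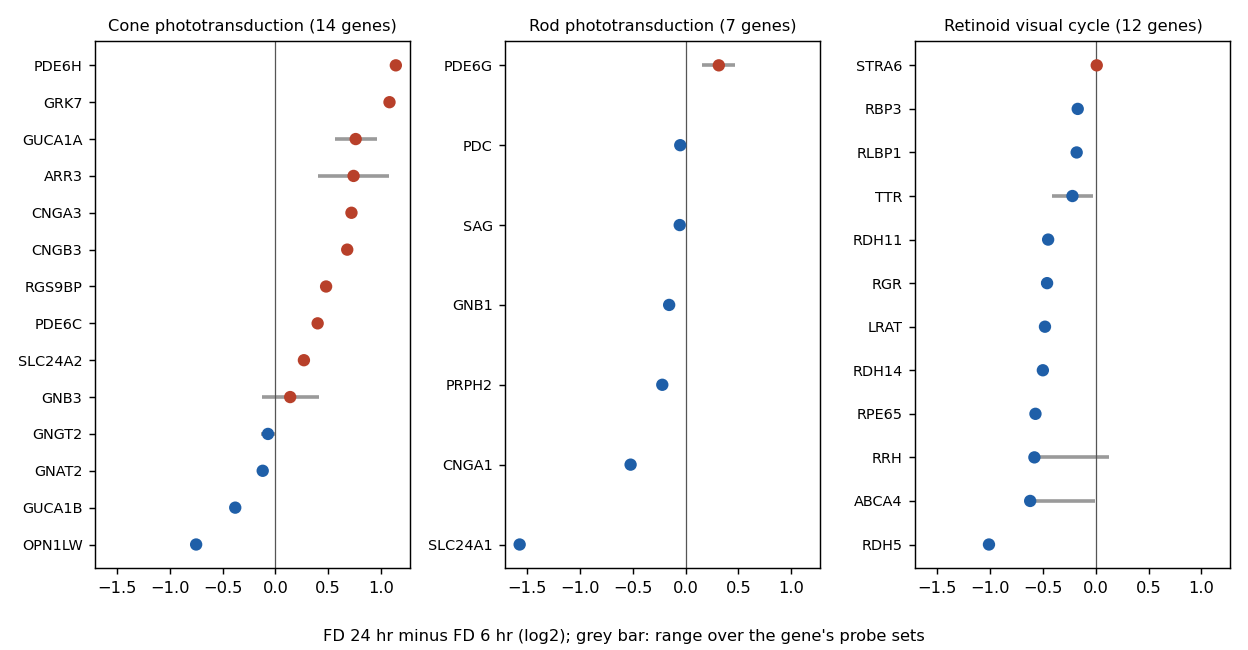
Log2 difference, FD 24 hr minus FD 6 hr, of the counted members of the cone, rod and retinoid visual cycle lists, in red above 0 and blue below 0, with a grey bar for the range over a gene's probe sets where it has several. Cone members reach 1.14 for PDE6H with OPN1LW at -0.75, and 11 of 12 visual cycle members lie below 0.

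Retinoic acid metabolism had most of its larger differences on the lower side. Among them were ALDH1A3, an enzyme of synthesis, and CYP26A1, an enzyme of breakdown, each by a single probe set. CYP26A1, which degrades retinoic acid, was at 7.01 in control, 6.76 at FD 0 hr, and 7.53 and 5.90 at 6 hr and 24 hr of recovery, a difference of -1.63. ALDH1A3, which makes retinoic acid, was at 6.45, 7.96, 8.26 and 7.37, a difference of -0.89. ALDH1A2, the synthetic enzyme known from the chick choroid, was dim, with 6.12, 5.86, 6.65 and 5.71. Its 3 probe sets differed by -0.94 to 0.09 and so went in both directions. All 3 enzymes had their highest level at FD 6 hr, ALDH1A2 by the median of its probe sets. CRABP1, a binding protein of retinoic acid in the cell, differed by -0.54 and RDH10, which makes retinal from retinol, by -0.52 with probe sets in both directions. RBP4, the retinol carrier of plasma, was at 13.52 at FD 6 hr and 14.22 at FD 24 hr. Of 14 counted members, 1 was higher and 4 lower by at least 0.5, which are 7.14% against 2.85% of all counted genes and 28.6% against 6.87%, and the median was -0.24.

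Vascular and hypoxia genes were lower where they differed by 0.5 or more. None of 21 counted members was higher by 0.5 and 8 were lower, or 38.1% against 6.87%, with a median of -0.17. NDRG1, which hypoxia induces, was at 12.18 in control, 11.67 at FD 0 hr, and 12.21 and 11.02 at 6 hr and 24 hr of recovery, and its 3 probe sets were lower by 0.93 to 1.36. EDNRA, the second endothelin receptor, was at 6.98, 9.22, 8.13 and 7.26, so that its level at FD 6 hr lay between FD 0 hr and FD 24 hr. EDNRB2, the avian paralogue of EDNRB that melanocytes use, differed by 0.34, and the ligand EDN1 was dim with -0.01.

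The vasodilators of the list were among its lower members. NOS2, the inducible nitric oxide synthase, was at 6.90 at FD 6 hr and 6.10 at FD 24 hr, and ADM, the vasodilator peptide adrenomedullin, at 8.08 and 7.44. ANGPT2, a ligand that loosens vessels, was at 9.55 in control, 10.29 at FD 0 hr, and 10.28 and 9.66 at 6 hr and 24 hr of recovery. EPAS1, which encodes HIF-2α, differed by -0.51 and CA9, a carbonic anhydrase, by -0.50. The growth factor VEGFA was at -0.17 and HIF1A at -0.35. Of 6 counted endothelial markers 2 were higher and 4 lower, or 66.7% lower against 54.6% of all counted genes, with a median of -0.07. CDH5 alone passed 0.5, at -0.64.

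Genes of stress kinase and glucocorticoid response, a list with receptors as well as targets, had 4 lower and no higher members past 0.5 among 20 counted. The lower share was 20% against 6.87% of all counted genes, and the median was -0.24. SGK1, a kinase that glucocorticoids induce, was at 10.80 in control, 9.97 at FD 0 hr, and 11.46 and 10.21 at 6 hr and 24 hr of recovery. The SGK1 value is the mean of unlike probe sets, since the brighter differed by -0.11 and the other by -2.39. PDK4, which restrains pyruvate dehydrogenase, was at 9.27, 10.41, 10.13 and 8.90, a difference of -1.23. PDK1, its paralogue from the TCA cycle list, was at 9.31 and 8.30 with probe sets lower by 0.50 and 1.52. PDK4 and PDK1 were each lowest at FD 24 hr. In the TCA cycle list 10 of 13 counted genes were lower, or 76.9% against 54.6% of all counted genes, with a median of -0.15. MT3, a metallothionein, differed by -0.74 and NR3C2, the mineralocorticoid receptor, by -0.66. FKBP5, a glucocorticoid target, was dim and went the other way, from 5.20 to 5.79.

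Oxysterol and bile acid genes had 4 lower and no higher members past 0.5 among 11 counted, or 36.4% lower against 6.87% of all counted genes, with a median of -0.34. The list includes the core genes that the authors reported for this pathway from the same recovery arrays. The 4 lower members, CH25H, SLCO1A2, AKR1D1 and HSD17B4, are all among those core genes, so the share is no independent result. CH25H, which makes 25-hydroxycholesterol, was at 5.97 in control, 8.07 at FD 0 hr, and 8.35 and 7.03 at 6 hr and 24 hr of recovery, a difference of -1.32. SLCO1A2, an organic anion transporter, was at 7.21, 8.31, 8.06 and 7.30. AKR1D1, a steroid reductase, was at 5.73, 7.63, 6.34 and 5.68. For each of these genes the FD 0 hr and FD 6 hr levels were above both others. CYP7A1, the rate-limiting enzyme of bile acid synthesis in liver, was dim, at 4.63 and 4.52.

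The respiratory chain was lower by small amounts in most members. Its list medians were smaller in size than 0.26, the SD among probe sets of a gene. That SD does not measure the spread of a list median or of a count of members. In complex I 24 of 30 counted genes were lower, or 80% against 54.6% of all counted genes, with a median of -0.12, and in complexes II to V 22 of 27, or 81.5%, with a median of -0.17. Only NDUFS3 at -0.75 and NDUFA1 at -0.64, both of complex I, passed 0.5 on the lower side. That is 6.67% of the counted complex I genes against 6.87% of all counted genes. On the higher side NDUFS1 of complex I was at 0.87 and UQCRC2 of complex III at 0.77, each by its middle probe set, and the brightest probe sets of these genes were at -0.09 and -0.03. Glycolysis had 14 of 22 counted genes higher, or 63.6% against 44.1% of all counted genes, with a median of 0.05. PFKL, a subunit of phosphofructokinase, was at 11.05 in control, 8.69 at FD 0 hr, and 9.85 and 10.40 at 6 hr and 24 hr of recovery. Levels above 10 had a median of -0.09 over all genes, and the median levels of these lists at FD 6 hr were 10.12 for complex I and 10.68 for complexes II to V.

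Of the counted receptors of glutamate, GABA, glycine and acetylcholine 1 differed by 0.5 or more. GRIN1, the obligatory NMDA receptor subunit, was the only glutamate receptor past 0.5 of 7 counted, or 14.3% against 2.85% of all counted genes. It lay at 9.45 in control, 8.14 at FD 0 hr, and 8.58 and 9.63 at 6 hr and 24 hr of recovery. GRIK1, a kainate receptor subunit, differed by 0.45. Receptors of GABA and glycine had no counted member past 0.5 in either direction among 7, with a median of -0.05, and the same held for 8 counted genes of acetylcholine and 12 of retinal neuropeptides and growth signals, of which VIP was at 0.25.

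Release proteins were higher in 14 of 21 counted members, or 66.7% against 44.1% of all counted genes, with a median of 0.13. By at least 0.5 they went both ways, with 2 higher and 2 lower, or 9.52% each way against 2.85% and 6.87% of all counted genes. NAPA, a SNAP that helps to recycle SNARE complexes, was at 8.72 in control, 8.35 at FD 0 hr, and 7.49 and 8.47 at 6 hr and 24 hr of recovery. STX1A, a plasma membrane SNARE, was at 11.26, 10.28, 10.44 and 11.12. SYT1, the calcium sensor of release, was instead at 9.68, 8.49, 8.87 and 7.98, with its 3 probe sets lower by 0.44 to 0.89, and RIMS2, an active zone protein, differed by -1.03 with probe sets from -1.11 to 0.16. NAPA and STX1A were thus on the higher side at FD 24 hr and SYT1 and RIMS2 on the lower side, although the sign of RIMS2 depended on the probe sets used.

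Markers of ganglion cells and of amacrine and horizontal cells were mostly higher at FD 24 hr, whereas those of bipolar cells were not, with 2 of 6 higher and a median of -0.05. Of 9 counted ganglion cell markers 8 were higher, or 88.9% against 44.1% of all counted genes, with a median of 0.36 and a list median level of 9.48 at FD 6 hr and 10.22 at FD 24 hr. THY1, a surface glycoprotein of ganglion cells, was at 10.60 in control, 8.83 at FD 0 hr, and 9.48 and 10.22 at 6 hr and 24 hr of recovery, and the neurofilament NEFL at 10.14, 8.70, 9.51 and 10.22. Of 9 counted amacrine and horizontal cell markers 8 were likewise higher, or 88.9%, with a median of 0.22. TFAP2B, a transcription factor of these cells, was at 10.02, 7.62, 8.82 and 9.37, while GAD1, which makes GABA, was at 12.36 and 12.44 on the recovery arrays. CALB1, the calcium-binding protein calbindin, had probe sets at -0.97, 0.24 and 1.57, and its value of 1.09 has no settled direction. For THY1, NEFL and TFAP2B the order was lowest at FD 0 hr, the array with the widest β-actin gap, and next lowest at FD 6 hr. The part that shares of these cells in the pools had in the differences of neuronal genes was not tested.

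Most marker sets of other cells had medians closer to 0. Cone markers had a median of 0.40, with 4 of 7 counted higher. Fibroblast and sclera markers had a median of -0.31, with 3 of 4 counted lower. Lymphocyte and granulocyte markers had a median of 0.40 over 2 counted. Of all counted genes 44.1% were higher and 54.6% lower. Of 8 counted markers of Müller glia 6 were lower, or 75%, with a median of -0.12. The glutamate transporter SLC1A3 was at 11.19 and 10.26 with both probe sets lower. Of the bipolar cell markers the factor ISL1, which ganglion cells express as well, was at 0.60. All 6 counted markers of macrophages and microglia were lower, by 0.05 to 0.39, with a median of -0.20. Melanocyte markers were split with 4 higher and 4 lower, and MLANA and PMEL were higher while the pigment enzymes TYR, TYRP1 and DCT lay between -0.21 and -0.02. Of 5 counted genes of red blood cells 4 were higher, with a median of 0.09. Of 6 counted oligodendrocyte markers 4 were higher with a median of 0.12, with the myelin enzyme CNP at 0.77 and UGT8, which makes myelin galactolipids, at -0.63. Lens markers had 4 of 6 counted higher, with a median of 0.14 and the small heat shock protein CRYAB at -0.64. Rod markers were few, as 3 were counted, at -0.52 to 0.21.

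Inflammation genes were lower in 13 of 15 counted members, or 86.7% against 54.6% of all counted genes, with a median of -0.22. IL1RL1, the receptor of interleukin-33, was at 6.05 in control, 7.39 at FD 0 hr, and 7.09 and 5.86 at 6 hr and 24 hr of recovery, with probe sets lower by 1.18 and 1.29. PTGDS, a prostaglandin D synthase, was at 9.90, 10.56, 11.46 and 10.71, and AVD, the biotin-binding protein avidin, at 6.30, 6.47, 8.07 and 7.47. PTGDS and AVD were above control and FD 0 hr on both recovery arrays, pairs of arrays whose hybridisation controls also differed. TNFAIP3, an inhibitor of NF-κB, went the other way, from 6.06 to 6.60. The coagulation starter F3, tissue factor, was at 7.93, 9.01, 9.61 and 8.73. Its list of complement and coagulation genes had 5 of 12 counted higher and 7 lower, with a median of -0.05. The lower share of 58.3% was close to the 54.6% of all counted genes.

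Enzymes against oxidants and proteins of the matrix had single members that stood out. Of 28 counted antioxidant enzymes 2 were higher and 3 lower by at least 0.5. These are 7.14% and 10.7%, against 2.85% and 6.87% of all counted genes. CAT, catalase, was at 8.09 in control, 9.17 at FD 0 hr, and 8.49 and 7.61 at 6 hr and 24 hr of recovery, with its 3 probe sets lower by 0.53 to 0.88, and GSR, glutathione reductase, differed by -0.80. GSTA3, a glutathione transferase, was at 5.28, 8.47, 6.76 and 7.39. MMP2, a matrix metalloproteinase, was at 9.16, 10.61, 9.76 and 8.83, and TGFBR1, a receptor of TGF-β, differed by -0.79. FABP7, a fatty acid-binding protein of glia, was at 8.38 and 7.44 on the recovery arrays, while FABP3 of the same list differed by 0.51. That list of fatty acid oxidation and PPAR genes had 5 of 16 counted higher and 11 lower, with a median of -0.09. The lower share was 68.8% against 54.6% of all counted genes. Of 19 counted collagens and matrix genes none was higher by 0.5 and 2 were lower, or 10.5% against 6.87% of all counted genes. These were COL3A1 and COL8A1, both with probe sets in both directions.

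Housekeeping lists were close to the median of all genes. Of 56 counted ribosomal protein genes 1 passed 0.5, or 1.79% against 2.85% of all counted genes on the higher side. This was RPL9 at 0.73, whose brightest probe set was at -0.04, and the list median was -0.04. The proteasome had a median of -0.05 over 28 genes, with PSMB4 at 0.62. Splicing and RNA-binding genes had 23 of 32 higher, or 71.9% against 44.1% of all counted genes, with a median of 0.11, and RBM3, an RNA-binding protein that cold induces, was at 8.04 in control, 8.71 at FD 0 hr, and 8.12 and 8.81 at 6 hr and 24 hr of recovery. Immediate early genes, which report recent activity, had KLF2 at -0.58 as the only one of 10 counted past 0.5. That is 10% lower against 6.87% of all counted genes. EGR1, a gene of retinal growth signalling known as ZENK, was at 7.85, 7.58, 8.36 and 8.40, equal on the recovery arrays within 0.04. Heat shock genes had 2 of 25 higher and 2 lower by 0.5, or 8% each way against 2.85% and 6.87% of all counted genes, with the chaperonin HSPD1 at 0.54.

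**Figure D5:**
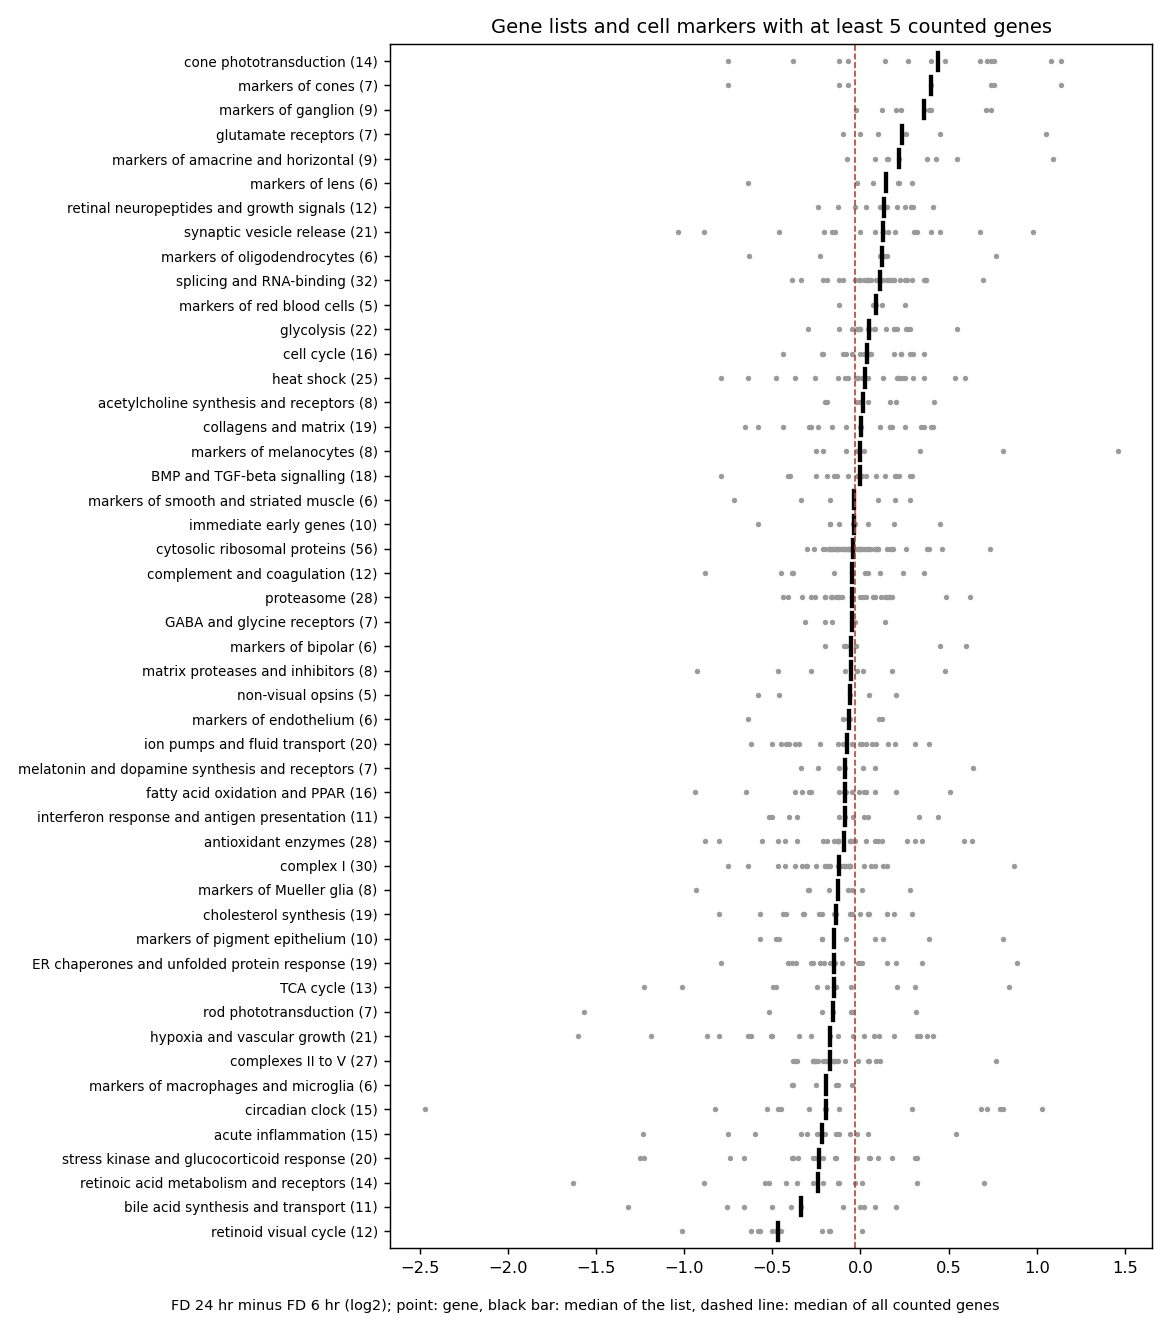
Log2 difference, FD 24 hr minus FD 6 hr, for the lists and marker sets with at least 5 counted genes (number in brackets), with a point for each gene, a black bar for the median of the list and a dashed line for the median of all counted genes at -0.03. Cone phototransduction is at the top with 0.44 and the retinoid visual cycle at the bottom with -0.47, and most other lists lie close to the dashed line.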

How the data were processed

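Pooled RNA of each condition was hybridised to an Affymetrix chicken array. The authors deposited log2 expression values with 2 decimals for 38535 probe sets, and the submitters' processing notes name Affymetrix Expression Console, RMA and MAS5. Values were used as deposited. The authors describe pre-processing these arrays both alone and jointly with induction arrays of another study, and they presented the joint version. Whether the deposited values come from that joint run is not settled here, and array number limits the precision. Platform annotation gave 1 gene for 27178 probe sets, several for 177 and none for 11180, and genes were grouped by Entrez ID. RefSeq symbols and synonyms for GRCg7b matched list members and chromosomes.

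Genes were counted at log2 differences of 1 and 0.5. With 1 array per condition no test was made. The genes named are the 15 largest differences each way among counted genes whose probe sets went the same way, all clock members, up to 4 members of each of 51 other lists and list genes named for their role, and exceptions are marked in the text. The members and lists were chosen with earlier results of these data known. The planned motif search in promoters was not run, since no promoter sequences were used here. Alternatives were other normalisations, gene summaries, probe sets and limits on dim genes. The median of the probe sets' own differences was added after seeing the data. Counting was tested on simulated data. Python 3.11.15, NumPy 2.4.6, pandas 2.3.3, statsmodels 0.14.6 and Matplotlib 3.10.9 were used.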

Additional observations from a re-analysis of the deposited data

How the results depend on the processing

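No paired analysis was possible because each condition has 1 array. Under 10 alternatives the genes higher by at least 1 numbered 14 to 32 and the lower 41 to 88. When each gene was read by its brightest probe set, 32 were higher and 88 lower by 1 and 287 higher by 0.5, and 14 of the 19 and 46 of the 57 genes past 1 in the median summary were shared. With the limit on dim genes at the 75th percentile, 110 were higher and 270 lower by 0.5. These settings test more and fewer genes, 8389 and 3604. With the median of the probe sets' own differences, 14 of the 19 and 52 of the 57 were shared. Other scalings moved the median of all genes by at most 0.02. Of 364 list medians, recomputed under part of the 10 alternatives, 1 moved by more than 0.26. It was that of lymphocytes and granulocytes over 2 genes, from 0.40 to 0.07 once probe sets open to cross-reading were left out. The bar of 0.26 is the SD among probe sets of a gene and exceeds most list medians in size. A small list median could therefore change sign without being counted as moved.

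For single genes the choice of probe set mattered. Of 1585 recomputed values of 232 named genes 109 were counted as moved and 11 as reversed. The count of reversed values leaves out sign changes of small differences. PFKP, at -0.30, was at 0.23 by its brightest probe set. By the brightest probe set, CALB1 was at -0.97, HLF at -0.01, NDUFS1 at -0.09, RPL9 at -0.04, SUCLG2, a TCA cycle subunit, at -0.88 and UQCRC2 at -0.03. NDUFS1 was at -0.087 by the mean, -0.085 once probe sets open to cross-reading were left out and -0.09 by the median of differences, where SUCLG2 was at -0.36. RIMS2 was at 0.16 with the cross-reading probe sets left out, and ARNTL kept its sign at -0.20. The cause was the probe set chosen, as these genes have probe sets in both directions. By the median of differences MYO3A was at -0.17, HMGN5 at 0.64, HLF at 0.53 and ARNTL at -1.25. Signal near background hides differences of dim genes, and 14 of 19 higher and 43 of 57 lower genes rest on a single probe set.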

Other observations

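Among 6950 dim genes, 3 were at least 1 above their FD 6 hr level at FD 24 hr and 8 at least 1 below it. PRDM1, a transcriptional repressor that photoreceptor precursors use, was at 5.93 in control, 5.39 at FD 0 hr, and 6.63 and 5.17 at 6 hr and 24 hr of recovery. C1QTNF3, a secreted relative of complement C1q, was at 4.79, 6.00, 6.40 and 4.95, and VCAM1, an adhesion molecule of activated endothelium, differed by -1.12 with probe sets at -2.0 and -0.24. The 3 on the higher side were GJA1, GJA5 and CTTN. GJA1, which encodes connexin 43, was at 6.10, 5.85, 5.85 and 7.23, and GJA5, a connexin of arterial endothelium, at 4.92, 5.64, 4.92 and 6.00. CTTN, the actin-binding protein cortactin, differed by 1.05 with probe sets from 0.02 to 1.05. Of 3518 probe sets above the limit that carry no gene name, 18 differed by 1 or more on the higher side, or 0.512%, and 26 on the lower, or 0.739%.

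Genes past 1 that belong to no list were named after their values were seen. TFPI2, an inhibitor of serine proteases in the matrix, was at 10.44 in control, 10.97 at FD 0 hr, and 11.07 and 9.68 at 6 hr and 24 hr of recovery. TNFRSF11B, the decoy receptor osteoprotegerin, was at 6.10, 7.33, 7.05 and 5.67. SLC6A2, the noradrenaline transporter, was at 6.04, 7.17, 7.45 and 6.10. CKMT1B, a mitochondrial creatine kinase, was at 11.31, 9.75, 11.39 and 10.33, and G0S2, an inhibitor of lipolysis, at 10.71, 10.42, 11.15 and 10.02. Each rests on values of single pools and has no replicate check.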
